A study of Mus musculus with 5 samples.

Results

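The Kcnq1ot1 domain of mouse chromosome 7 was described here by the CpG methylation of its CpG islands (CGIs, short stretches rich in CG dinucleotides) and of the shores, stretches of about 2000 bp next to an island. All CG entries of these 2 classes between positions 142900000 and 143600000 (build mm10) were taken, which gave 31 regions, 12 islands and 19 shores, of 33121 islands and shores listed in the series. All 12 islands and 16 of the shores were listed in all 5 libraries, and the other 3 shores were not listed in female ESC and are kept apart.

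Kcnq1ot1 is a long noncoding RNA that is transcribed from within the Kcnq1 gene, antisense to it. Its start lies at an imprinting control region that is methylated in the oocyte, so that the maternal copy is methylated and silent and the paternal copy is transcribed. In textbook accounts the RNA then keeps Kcnq1, Cdkn1c, Phlda2 and further neighbours silent in cis on the paternal chromosome, some of them, such as Ascl2, mainly in the placenta. Fetal germ cells erase such imprints before new ones are set in the gametes.

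Methylation had been measured by reduced representation bisulfite sequencing, which cuts DNA with MspI and reads the cytosines of the CpG-rich fragments. All 5 libraries came from the strain C57BL6. Female ESC are a female embryonic stem cell line and pESC a parthenogenetic one, derived from an egg without a sperm genome; both were grown on feeder cells with serum and LIF, and how much feeder DNA their libraries held was not measured. ESC-PGCLC and pESC-PGCLC are germ cell-like cells made from these lines by 46 h of epiblast-like culture with activin A and bFGF, after several passages in a 2i medium with less PD0325901, followed by 4 days with BMP4, LIF, SCF and EGF, and sorted for CD61 and SSEA1. PGC are primordial germ cells taken from gonads of E12.5 fetuses with SSEA1 beads; the labels state neither their sex nor how many fetuses were pooled. Each group had 1 library, so the differences below compare 2 libraries and have no replicate error and no test. The files give a level per region without read counts, so the depth behind each level is unknown. Cell identity could not be checked against marker genes, since expression is not in these data. Between 31242 (female ESC) and 32458 (ESC-PGCLC) islands and shores were listed per library. Female ESC listed 28 of the 31 domain regions and each of the other 4 libraries all 31.

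The sequences below are shown for the CG dinucleotides before the starts of the RNA and of a pair of the genes it controls. The table of RefSeq promoters used here (GRCm38.p6) matched 3 of the 5 member genes, Kcnq1ot1, Ascl2 and Phlda2, and not Kcnq1 and Cdkn1c. The 250 bases before each start are printed 5′ to 3′ on the strand of the gene, each the minus strand, with CG dinucleotides in capitals.

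Kcnq1ot1, chr7:143296548-143296797, minus strand: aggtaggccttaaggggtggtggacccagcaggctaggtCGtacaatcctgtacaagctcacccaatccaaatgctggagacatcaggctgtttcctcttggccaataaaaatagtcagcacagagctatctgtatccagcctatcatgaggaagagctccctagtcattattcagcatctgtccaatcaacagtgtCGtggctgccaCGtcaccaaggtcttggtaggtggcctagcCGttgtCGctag
Ascl2, chr7:142969265-142969514, minus strand: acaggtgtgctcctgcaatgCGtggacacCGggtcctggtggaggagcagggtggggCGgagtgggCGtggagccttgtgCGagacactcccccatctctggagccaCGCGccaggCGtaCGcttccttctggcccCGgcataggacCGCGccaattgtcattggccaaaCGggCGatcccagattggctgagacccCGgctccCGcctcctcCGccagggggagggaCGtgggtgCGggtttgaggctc
Phlda2, chr7:143502525-143502774, minus strand: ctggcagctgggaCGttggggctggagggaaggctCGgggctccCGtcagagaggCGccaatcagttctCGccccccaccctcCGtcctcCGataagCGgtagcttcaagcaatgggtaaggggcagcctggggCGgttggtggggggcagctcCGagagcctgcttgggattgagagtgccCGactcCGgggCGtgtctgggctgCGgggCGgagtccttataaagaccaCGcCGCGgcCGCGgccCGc

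The Kcnq1ot1 stretch held 5 CG dinucleotides and no CCGG, the MspI site, which reads the same on both strands and has a CG at its centre. The Ascl2 stretch held 19 CG and 3 CCGG, and the Phlda2 stretch 21 CG and 1 CCGG. Over 32851 RefSeq promoter entries cut to the same 250 bases, the median was 6 CG, 92.1% held a CG and 47.1% held a CCGG. The stretches of Ascl2 and Phlda2 overlap a measured island, and that of Kcnq1ot1 overlaps no measured island or shore. The measured Kcnq1ot1 island lies at positions 143295404 to 143295824. It is thus inside the transcribed part of Kcnq1ot1 (143213111 to 143296547), 723 bp from the RefSeq start, and inside the span of Kcnq1 (143106877 to 143427050).

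The Kcnq1ot1 island was at a low level in 2 libraries and at a high level in 3. Its methylation level was 16.7% in female ESC, 20.5% in ESC-PGCLC, 61.7% in PGC, 67.7% in pESC and 75.0% in pESC-PGCLC. Both libraries of the biparental line were thus low, and both parthenogenetic libraries and the fetal germ cells were high. In that order the steps were 3.86, 41.2, 5.97 and 7.32 percentage points. With 1 library each, whether any of these neighbours differ beyond a replicate spread cannot be told. The range over the 5 libraries, 58.4 points, ranked 2 among the 14214 islands listed in all libraries, after the island at Airn (61.0 points).

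The plot of the island by library sets the Kcnq1ot1 island and its shores beside the other islands of the domain.

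**Figure D1:**
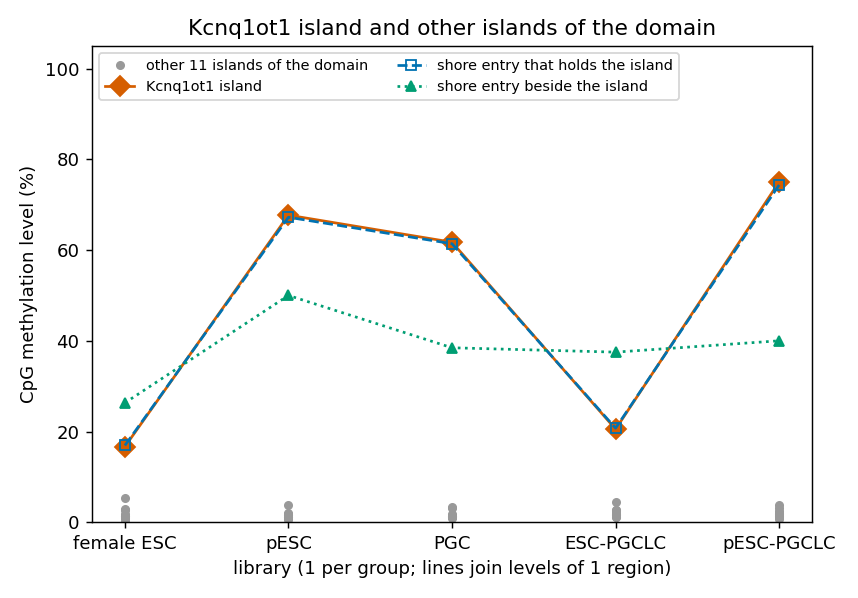
CpG methylation level (%) of the Kcnq1ot1 island (diamonds), of the shore entry that contains it (open squares), of the shore entry beside it (triangles) and of the other 11 islands of the domain (grey) in each of the 5 libraries, 1 per group. The island runs from 16.7% in female ESC to 75.0% in pESC-PGCLC, while no other island of the domain passes 5.26%.

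A pair of shore entries lies at the Kcnq1ot1 island, and they are not independent of it or of each other. The entry from 143294312 to 143296312 contains the whole island, and its levels were nearly those of the island: 16.9% in female ESC, 20.7% in ESC-PGCLC, 61.4% in PGC, 67.2% in pESC and 74.3% in pESC-PGCLC. The entry from 143293403 to 143295403 ends where the island begins and shares 1091 bp with the first. It had 26.3% in female ESC, 37.5% in ESC-PGCLC, 38.5% in PGC, 40% in pESC-PGCLC and 50% in pESC. Female ESC was again lowest, but ESC-PGCLC, PGC and pESC-PGCLC lay within 2.5 points of each other there. Levels of 37.5%, 40% and 50% are simple fractions, which few reads can give, so the values of this entry call for caution. The range of this flanking shore, 23.7 points, ranked 327 among 16696 shores, while that of the shore containing the island ranked 8.

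In the non-CpG contexts CHG and CHH (H stands for a base other than G), which also show bases left unconverted by bisulfite, the Kcnq1ot1 island was low in all libraries. Its CHH level lay between 0.426% (pESC) and 1.09% (pESC-PGCLC), and its CHG level between 0.289% (pESC) and 1.63% (pESC-PGCLC). The mean CHH level over all islands was between 0.586% and 0.735%. pESC-PGCLC, the library with the highest CpG level at this island, also had its highest CHH and CHG levels. With the mean CHH level of islands subtracted from each library, the island stood 54.5 points higher in pESC-PGCLC than in ESC-PGCLC.

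Between the stem cell lines, the Kcnq1ot1 island was 51.0 points higher in pESC than in female ESC, and female ESC held 24.6% of the pESC level. One of 14214 islands, that at Airn, had a larger difference. Of the 28 domain regions listed in all libraries, 2 were at least 25 points apart, both higher in pESC: the island and the shore that contains it. Across all islands and shores 0.288% passed that size in either direction, and across islands alone 0.127%. The flanking shore, whose levels may rest on few reads, lay just under 25 points, at 23.7 points. The other 27 regions, this flanking shore and the containing shore among them, had a median difference of 0.10 points, with 14 higher and 13 lower in pESC, and over all 30910 islands and shores the median was -0.16 points.

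The line difference at the island itself was as wide after induction. The Kcnq1ot1 island was at 75.0% in pESC-PGCLC and 20.5% in ESC-PGCLC, 54.5 points apart, again second to Airn. The same 2 entries, the island and its containing shore, were at least 25 points higher in pESC-PGCLC, where 0.136% of all islands and shores were that far apart. The flanking shore differed by 2.5 points (40% against 37.5%). With the island averaged with its pair of shore entries, the line difference was 41.7 points between the stem cells. Between the induced cells it was 36.9 points. Of the other 27 regions, pESC-PGCLC was higher at 9 and lower at 18, with a median of -0.15 points against -0.02 over all.

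During induction the level of the island was a little higher at the end in each line. It was 3.86 points higher in ESC-PGCLC than in female ESC and 7.32 points higher in pESC-PGCLC than in pESC, a difference of 3.46 points between these changes. No domain region listed in all libraries was 25 points apart in either induction, where 0.288% and 0.0971% of all islands and shores were. Over all 14214 islands, 57.2% were higher in ESC-PGCLC than in female ESC, with a median difference of 0.07 points. In the parthenogenetic line 63.5% were higher after induction, with a median of 0.14 points. Of the other 11 islands of the domain, 7 and 9 were higher. Most islands with appreciable methylation were instead lower. Of 382 islands with a mean of at least 30% over the 5 libraries, 341 were lower in ESC-PGCLC than in female ESC (median difference -6.20 points) and 309 lower in pESC-PGCLC than in pESC (median -3.92 points). The Kcnq1ot1 island was 1 of 21 of these that were higher after both inductions. The 382 were chosen by the same levels that are compared. The Kcnq1ot1 island is among them through its levels in PGC, pESC and pESC-PGCLC. In the biparental line it was at 16.7% and 20.5%, under the mean of 30% that the choice asked for. Averaging the island with its pair of shore entries moved the changes to 6.29 points in the biparental and 1.48 points in the parthenogenetic line, since the flanking shore was 11.2 points higher in ESC-PGCLC than in female ESC and differed by -10 points between pESC-PGCLC and pESC.

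Against fetal germ cells, the 2 induced cell types stood on opposite sides of PGC. The Kcnq1ot1 island was 41.2 points lower in ESC-PGCLC than in PGC, and 1 island, that at Airn, was lower by more. It was 13.3 points higher in pESC-PGCLC than in PGC, which 5 of 14214 islands exceeded. Of the domain regions, 2 were at least 25 points lower in ESC-PGCLC (0.146% of all islands and shores in either direction), the island and its containing shore, and 0 were that far apart between pESC-PGCLC and PGC (0.0679%). PGC itself was 45.1 points above female ESC and 5.97 points below pESC at the island. Both comparisons share the PGC library and are not independent.

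The plot of island differences places the domain within all islands for each comparison.

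**Figure D2:**
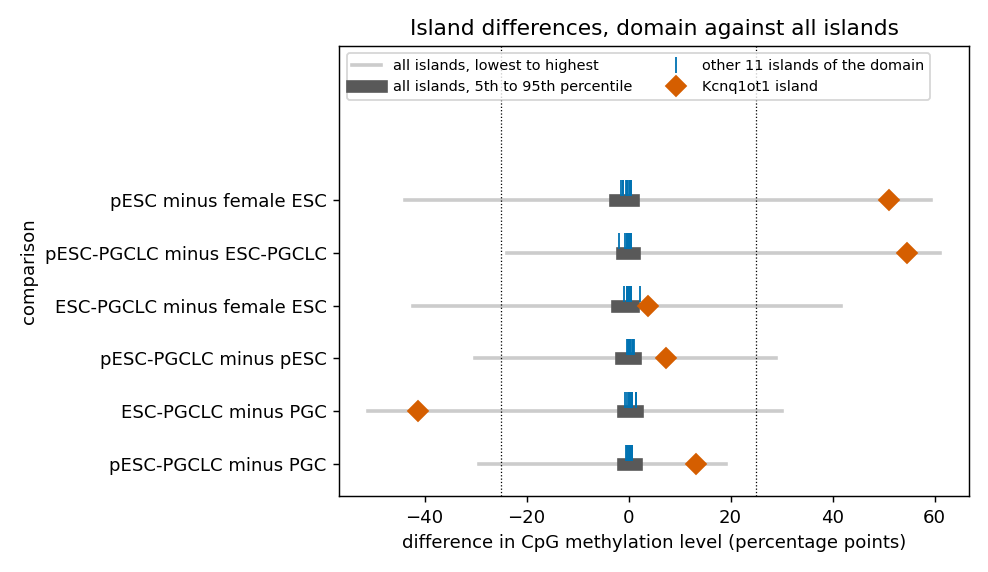
Difference in CpG methylation level (percentage points) for 6 comparisons: the Kcnq1ot1 island (diamonds), the other 11 islands of the domain (blue ticks), and all 14214 islands as lowest to highest (thin grey) and 5th to 95th percentile (thick). Dotted lines mark 25 points; the Kcnq1ot1 island passes them in 3 comparisons, and the other domain islands all lie between -1.92 and 2.29 points.

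The islands of the genes in the domain were almost free of methylation in all 5 libraries. Over the 11 islands other than that of Kcnq1ot1, medians were 1.39% in female ESC, 1.55% in pESC, 1.41% in PGC, 1.84% in ESC-PGCLC and 1.76% in pESC-PGCLC, beside medians of 1.48% to 1.65% over all islands. No library had any of them above 5.26%. Their low level held in the libraries where the Kcnq1ot1 island was high and in those where it was low.

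Kcnq1 encodes a potassium channel subunit and hosts the Kcnq1ot1 RNA. The island at its lower-coordinate end (143107028 to 143107765), 188 kb from the Kcnq1ot1 island, had 2.82% in female ESC, 1.65% in pESC, 1.80% in PGC, 2.51% in ESC-PGCLC and 2.48% in pESC-PGCLC. Its shore (143105027 to 143107027) had 9.50% in female ESC, 7.02% in pESC, 7.03% in PGC, 4.83% in ESC-PGCLC and 5.77% in pESC-PGCLC. Both were highest in female ESC, where the Kcnq1ot1 island was lowest. The means over all islands and over all shores were highest in female ESC too.

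Cdkn1c encodes the cyclin-dependent kinase inhibitor p57Kip2, a growth-limiting protein expressed from the maternal copy. Its island (143459055 to 143461477), the longest of the domain at 2422 bp, had 2.63% in female ESC, 2.06% in pESC, 3.46% in PGC, 2.70% in ESC-PGCLC and 3.10% in pESC-PGCLC. The shore on its lower-coordinate side (143457054 to 143459054) was more methylated, with 33.9% in female ESC, 25.4% in pESC, 27.5% in PGC, 28.1% in ESC-PGCLC and 21.0% in pESC-PGCLC. This shore was lower in the parthenogenetic than in the biparental library before and after induction, with differences of -8.48 and -7.11 points. Of all shores, 61.2% were lower in pESC than in female ESC, and 51.5% lower in pESC-PGCLC than in ESC-PGCLC. The Cdkn1c shore was also lower after induction in both lines, with -5.85 points for the biparental and -4.48 points for the parthenogenetic line. Of all shores, 61.3% and 53.6% were lower after these inductions, so its directions are those of most shores. Its range of 13.0 points was larger than that of 86.3% of shores. The shore on the other side (143461477 to 143463478), shared with the noncoding gene model Gm33663, lay between 12.2% (pESC) and 16.8% (ESC-PGCLC).

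Phlda2 encodes a pleckstrin homology domain protein that limits placental growth. Its island (143501647 to 143502963) covers the printed promoter stretch and had 1.33% in female ESC, 1.15% in pESC, 1.33% in PGC, 1.09% in ESC-PGCLC and 1.45% in pESC-PGCLC. These levels spanned 0.363 points, the narrowest range of the 12 islands.

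Ascl2 encodes a basic helix-loop-helix factor of the trophoblast. Its island (142967451 to 142969457), 327 kb from that of Kcnq1ot1, had 1.36% in female ESC, 1.15% in pESC, 1.41% in PGC, 1.54% in ESC-PGCLC and 1.94% in pESC-PGCLC. Its shore on the promoter side (142969457 to 142971458) lay between 3.80% (PGC) and 6.16% (pESC). Neither the island nor this shore had the split seen at the Kcnq1ot1 island.

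The other genes of a list of 12 domain genes were Tspan32, Cd81, Tssc4, Trpm5, Slc22a18, Nap1l4 and Cars. Tspan32, Slc22a18 and Cars had no island or shore within 1000 bp in the window. The island at Cd81 (143052674 to 143053288), a tetraspanin gene, lay between 1.40% (female ESC) and 1.91% (ESC-PGCLC), and that at Nap1l4 (143548410 to 143549352), a nucleosome assembly protein gene, between 1.05% (female ESC) and 1.51% (pESC-PGCLC). Of a pair of islands at Tssc4, that from 143069070 to 143069595 lay between 0.949% (PGC) and 1.57% (ESC-PGCLC). The other, 281 bp long from 143069768 to 143070049, lay between 0.360% (female ESC) and 2.65% (ESC-PGCLC). A pair of overlapping shores between Tssc4 and Trpm5, a taste-cell cation channel gene, was highest in pESC, with 11.4% and 14.5%, and lowest in female ESC, with 7.18% and 8.69%; PGC came second in both. The shores at Cd81 and Nap1l4 stayed under 3% in every library.

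A further 3 islands lay at no gene of the list. The island at Gm33663 (143464850 to 143465272), a noncoding gene model next to Cdkn1c, lay between 0.614% (pESC) and 1.79% (female ESC). Between Kcnq1 and Cdkn1c, with no gene within 1000 bp, the island from 143437811 to 143438545 lay between 1.13% (PGC) and 1.86% (pESC-PGCLC). The island from 143445160 to 143446003 in the same interval had 5.26% in female ESC, 3.88% in pESC, 3.04% in PGC, 4.43% in ESC-PGCLC and 3.72% in pESC-PGCLC. The shore on its lower-coordinate side (143443159 to 143445159) had 28.6% in female ESC, 19.1% in pESC, 9.43% in PGC, 23.1% in ESC-PGCLC and 24.2% in pESC-PGCLC. PGC was lowest and female ESC highest at both of these neighbouring entries, and the range at the shore, 19.1 points, was larger than that of 95.5% of shores. The means over all islands and over all shores had the same extremes. They were 3.41% and 11.3% in PGC, and 3.91% and 14.3% in female ESC.

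The profile of the domain by distance shows where methylated entries lie.

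**Figure D3:**
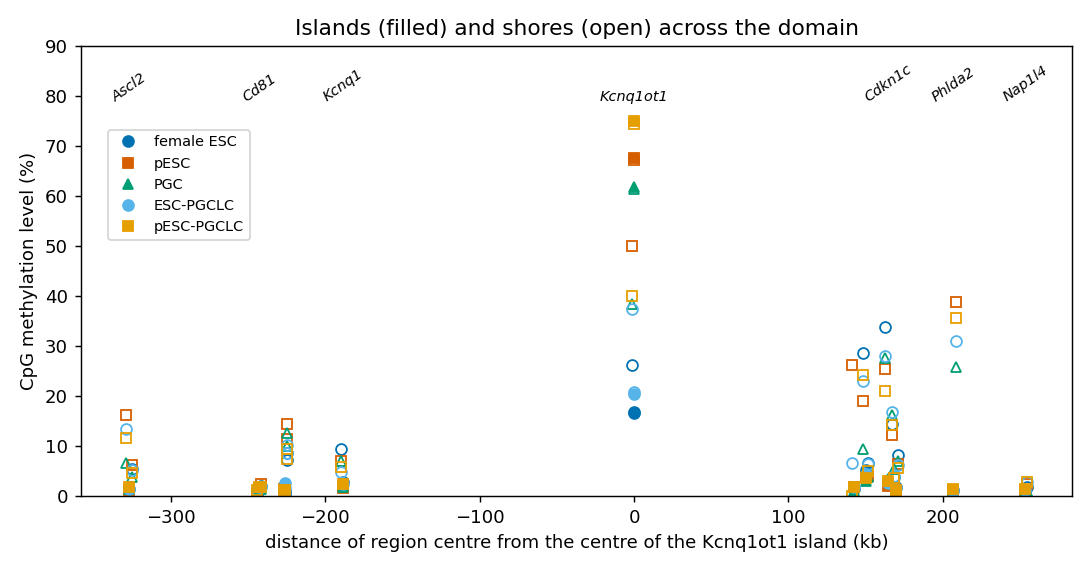
CpG methylation level (%) of the 12 islands (filled) and 19 shores (open) against distance of their centre from that of the Kcnq1ot1 island (kb), in colours by library. Islands stay near 0 except at Kcnq1ot1, and the shores that pass 25% in some library lie at Kcnq1ot1 and on its Cdkn1c and Phlda2 side.

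Over the 16 shores listed in all libraries, the medians were 7.75% in female ESC, 6.76% in pESC, 6.99% in PGC, 6.29% in ESC-PGCLC and 5.66% in pESC-PGCLC, above the 4.23% to 4.54% over all shores. Shores with a range of at least 10 points numbered 4: both at Kcnq1ot1, which overlap each other, that of the intergenic island and that of Cdkn1c. The last had the smallest of these ranges and ranked 2279 among 16696 shores, so at least 2279 shores pass 10 points. The exact share of all shores was not counted, so whether the domain holds more or fewer such shores than elsewhere cannot be told. At Kcnq1ot1 female ESC was lowest in both entries, and at the other 2 it was highest, as in the mean over all shores.

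The 3 shores that female ESC did not list can be compared over 4 libraries only. The shore beside Phlda2 on its promoter side (143502963 to 143504964) had 38.9% in pESC, 25.8% in PGC, 31.0% in ESC-PGCLC and 35.6% in pESC-PGCLC. Both parthenogenetic libraries were above the other 2, by 4.58 points between the induced cells. The shore over the far end of Ascl2 (142965450 to 142967450) had 16.2% in pESC, 6.67% in PGC, 13.5% in ESC-PGCLC and 11.7% in pESC-PGCLC. The shore of the intergenic island from 143437811 was listed at 26.2% in pESC, 6.67% in ESC-PGCLC and 0 in both PGC and pESC-PGCLC, which makes a difference of -26.2 points between pESC-PGCLC and pESC. All 3 were highest in pESC.

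**Figure D4:**
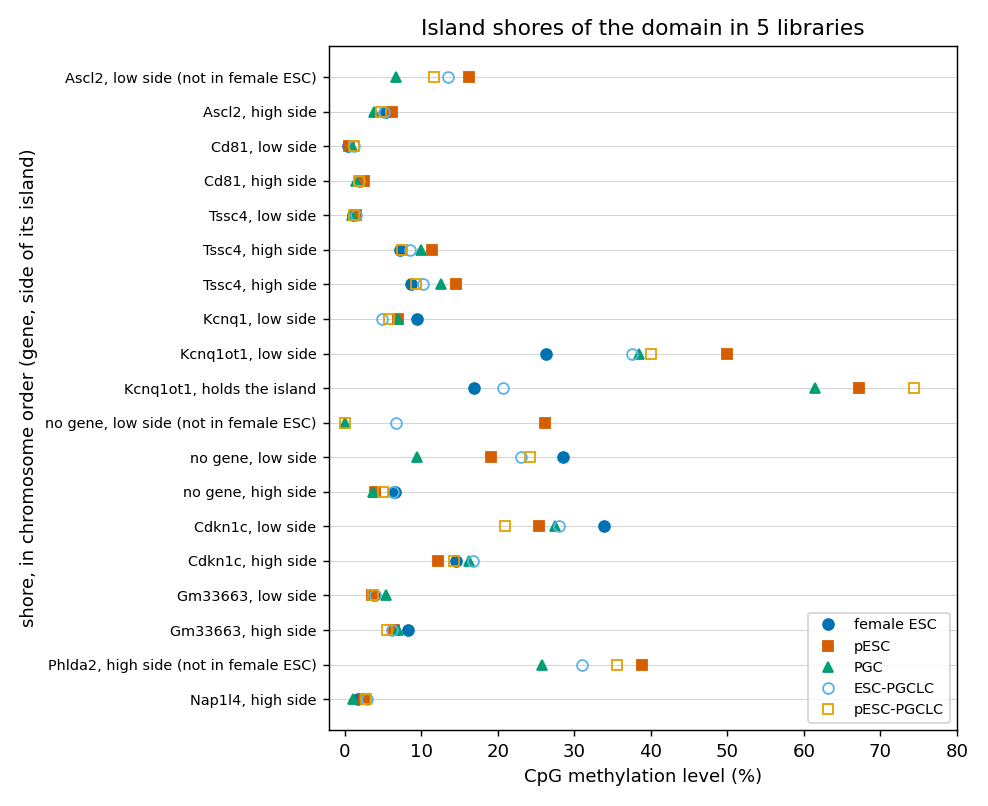
CpG methylation level (%) of the 19 shores of the domain in chromosome order, with the gene and the side of the island; 3 shores were not listed in female ESC. The shore that holds the Kcnq1ot1 island is the one with a wide gap between libraries, from 20.7% (ESC-PGCLC) to 61.4% (PGC).

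Likeness to the Kcnq1ot1 island was measured as the root mean square difference over the 5 libraries, among all islands outside the domain. The closest was an island at Gnas (chromosome 2, 174298463 to 174300644; 11.1 points), followed by those at Peg13 (chromosome 15, 72809537 to 72810123; 11.6 points), Peg3 (chromosome 7, 6730062 to 6730398; 13.0 points), Airn (chromosome 17, 12741440 to 12742489; 13.4 points) and Nap1l5 (chromosome 6, 58906723 to 58907147; 13.6 points). All 5 lie at imprinted genes. Since they were chosen for their levels in these same libraries, their low levels in female ESC and ESC-PGCLC follow from the choice, as does Pearson's r with the Kcnq1ot1 island over the 5 libraries, which ran from 0.867 (Peg3) to 0.994 (Airn). The induction changes of these 5 are differences of the same levels, so the choice bears on them as well. In the biparental line the 5 were lower in ESC-PGCLC than in female ESC, with differences of -0.982 points (Airn) to -24.1 points (Peg3), where the Kcnq1ot1 island was 3.86 points higher. The island at Impact (chromosome 18), another imprinted gene, which ranked 7 in likeness and was named after its values were seen, was 2.03 points higher there. The islands beside it in rank were lower there. They were that at Gm52481 (chromosome Y, rank 6), with -11.5 points, and another at Gnas (rank 8), with -8.26 points. In the parthenogenetic line 4 of the 5 were lower in pESC-PGCLC than in pESC, with differences of -2.33 points (Gnas) to -6.89 points (Peg3), and Airn was 0.823 points higher, beside 7.32 points at Kcnq1ot1. These differences could not be tested with 1 library per group.

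**Figure D5:**
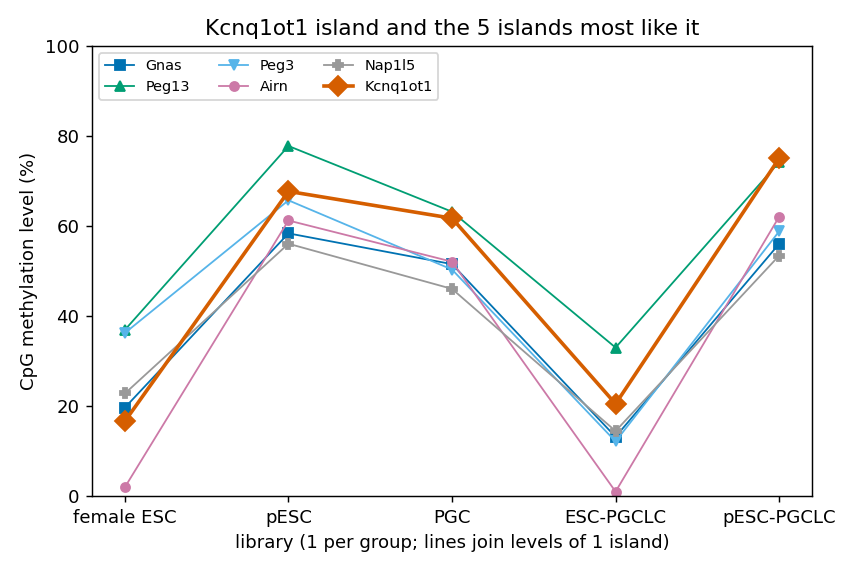
CpG methylation level (%) of the Kcnq1ot1 island (diamonds) and of the 5 islands with the smallest root mean square difference from it, in each library. The Kcnq1ot1 line goes from 16.7% in female ESC to 20.5% in ESC-PGCLC, and the other 5 are lower in ESC-PGCLC than in female ESC.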

How the data were processed

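The deposited values are methylation levels per region, a fraction from 0 to 1, with region class and cytosine context, per the file headers. Bismark 0.16.3, Bowtie2 and the build mm10 are named in the submitters' processing notes; their settings, any coverage filter and the drawing of regions are not given in the sources. Levels were multiplied by 100 and used as percent. Coordinates are as deposited, with the counting base not stated.

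Regions were taken by overlap with the window and tied to RefSeq genes (GRCm38.p6) that they overlap or lie within 1000 bp of. A difference of at least 25 percentage points was called, with no test. Counts at 25 points are beside the share of all islands and shores listed in all 5 libraries, except those under alternative processing. All islands of the window are named, and shores that adjoin an island of a member gene or have a range of at least 10 points; the likeness rule names 5 islands. Members, lists and rules were chosen with earlier results of these data known, and the count over islands with a mean of at least 30% was added after values were seen. The call was tried on simulated islands at an assumed read depth, which does not show how it behaves at shores or at the unknown depth of these data. Promoter, exon, intron and repeat entries were not used here. Python 3.11.15, pandas 2.3.3 and numpy 2.4.6 were used.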

Additional observations from a re-analysis of the deposited data

Results flagged for a closer look

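At 2 shores the induction changes of the lines went in opposite directions by at least 5 points each, with 1 library per group and the difference not tested. How many of all shores meet this rule was not counted, and the read depth behind these levels is unknown. At the first of them, levels of 37.5%, 40% and 50% are simple fractions, which few reads can give. Its CHH level was listed at 0 in every library but female ESC. At the shore beside the Kcnq1ot1 island (143293403 to 143295403) ESC-PGCLC was 11.2 points above female ESC and pESC-PGCLC differed from pESC by -10 points, a difference of -21.2 points. At the intergenic shore from 143443159 to 143445159, the difference of ESC-PGCLC from female ESC was -5.49 points and pESC-PGCLC was 5.08 points above pESC, a difference of 10.6 points.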

How the results depend on the processing

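The 6 differences at the Kcnq1ot1 island kept their direction and their side of 25 points under all 4 alternatives tried: the overall shift of islands taken out as a median or as a factor, the mean CHH level subtracted, and the island averaged with its pair of shore entries. The island averaged with its shores moved the 2 induction changes by over 1.5 times, to 6.29 points in the biparental and 1.48 points in the parthenogenetic line. The median shifts of islands were at most 0.179 points and the mean CHH levels at most 0.735%. Taking these out could therefore hardly move the differences across 25 points. One of the averaged shores contains the island and has nearly its levels. Counts of called domain regions moved by over 1.5 times, or from 0, in 7 of 36 cases. With islands only, 1 region was called in each of pESC against female ESC, pESC-PGCLC against ESC-PGCLC and ESC-PGCLC against PGC, since the containing shore is then left out. At 10 points, 1 region was called in each induction and 3 for pESC-PGCLC against PGC, and 3 in place of 2 for pESC against female ESC and for ESC-PGCLC against PGC. With all regions listed in the 2 compared libraries, whether or not in the others, 1 was called for pESC-PGCLC against pESC. It is a shore listed at 0 in pESC-PGCLC. The share of all islands and shores was not counted at 10 points or with all regions listed in the 2 compared libraries. Those counts therefore cannot be set against it. The median of the other domain regions was lower with islands only, at 1.39% against 2.82% in female ESC, 1.55% against 2.53% in pESC, 1.41% against 3.04% in PGC, 1.84% against 2.91% in ESC-PGCLC and 1.76% against 3.10% in pESC-PGCLC. Coverage minimums could not be tried without read counts, and no paired analysis was possible because each group has 1 library.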

Other observations

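Over the 28 domain regions listed in all libraries, CHH medians ran from 0.518% in pESC to 0.721% in pESC-PGCLC, and the highest level of any region was 1.09%. The CHG level reached 3.85% in 1 case, the 281 bp island at Tssc4 in female ESC, whose CHH level there was listed at 0 and whose CpG level was 0.360%.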
